A study of Mus musculus with 12 samples.

Results

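Genes for amino acid uptake, the ATF4 stress response, serine, glycine and one-carbon metabolism, and the charging of transfer RNAs (tRNAs) were followed as a set of 40 named members. They were taken from the array annotation by symbol or alias, with 1 probe set per gene. A probe set naming the gene alone was found for 39 members, and Pycr1 was not analysed here. A level above log2 4 on at least 3 arrays was required, and 38 members passed. Each of the 38 lay above 4 on all 12 arrays, so the filter selected none of them through a single group. Of 18193 genes with such a probe set in the whole series, 9293 passed. The remaining member, Slc7a11, the cystine transporter, lay between 2.23 and 2.44 on all 12 arrays, at the floor of the values, and has no measured change.

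RNA was measured on 12 Affymetrix arrays of B220+ B cells sorted by flow cytometry from mouse spleen, where B220 is a surface protein of most B cells. Mice were Foxp1flox/del (called deleted here) or Foxp1wt/flox (called control), both on a mixed 129/Sv-C57BL/6 background, so that mice of both genotypes carried a flox (conditional) allele. FOXP1 is a transcription factor of the forkhead family with roles in B cell development. Cells of each genotype were incubated for 4 h with or without what the labels call IgM, and each of the 4 groups had 3 arrays. The labels do not name a Cre driver, the age of the mice, how the flox allele was recombined, or whether replicates were separate animals or cultures. The p-values therefore measure only the spread between these samples, which may be technical.

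ATF4 is a transcription factor made when the translation factor eIF2 is phosphorylated, for example by the kinase GCN2, which senses uncharged tRNA. Because ATF4 is controlled largely at translation, the RNA of Atf4 is a poor guide to the amount of its protein. ATF4 binds amino acid response elements in genes for amino acid transporters, amino acid synthesis and tRNA synthetases, and it also drives genes that later damp the response. Stimulated lymphocytes are known to raise amino acid transport and one-carbon metabolism as they grow before dividing.

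The letters of the amino acid response element were looked for in the members' promoters, and sequences of 9 members that hold it are shown because several of these genes lead the results. The windows ran from 250 bases before to 50 bases after each start in RefSeq on GRCm38.p6, and 33 of the 39 members with a probe set were found there. The motif TGATGNAA, or TTNCATCA on the other strand, was in 11 of these 33 promoters, or 33.3%, against 4.51% of 27025 genes. The members were listed from pathways that ATF4 acts on, so this contrast describes the list and is not a result. The E-box CACGTG, which reads the same on both strands, was in 4 of the 33, or 12.1%, against 8.09% of genes. The sequences below run 5′ to 3′ along the gene's strand, with the matching letters in capitals.
Trib3 (chr2:152344031-152344310, minus strand): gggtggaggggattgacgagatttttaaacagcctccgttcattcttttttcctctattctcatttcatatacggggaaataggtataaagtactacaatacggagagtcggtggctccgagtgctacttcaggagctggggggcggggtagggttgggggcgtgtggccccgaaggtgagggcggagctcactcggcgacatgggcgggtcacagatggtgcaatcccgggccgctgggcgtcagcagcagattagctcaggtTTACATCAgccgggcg
Asns (chr6:7693180-7693459, minus strand): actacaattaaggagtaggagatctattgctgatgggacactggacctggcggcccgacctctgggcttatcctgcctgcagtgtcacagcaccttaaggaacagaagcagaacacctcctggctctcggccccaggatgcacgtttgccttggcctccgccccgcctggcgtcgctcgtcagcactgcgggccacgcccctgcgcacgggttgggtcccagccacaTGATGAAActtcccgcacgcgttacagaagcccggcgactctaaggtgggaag
Atf3 (chr1:191183304-191183583, minus strand): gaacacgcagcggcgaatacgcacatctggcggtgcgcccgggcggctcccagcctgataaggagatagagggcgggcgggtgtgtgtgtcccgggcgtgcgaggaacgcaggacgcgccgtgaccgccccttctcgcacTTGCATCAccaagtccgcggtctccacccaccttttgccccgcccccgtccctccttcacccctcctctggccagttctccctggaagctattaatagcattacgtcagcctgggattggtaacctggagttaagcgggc
Chac1 (chr2:119351037-119351068, plus strand): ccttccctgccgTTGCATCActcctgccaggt
Slc1a4 (chr11:20332698-20332729, minus strand): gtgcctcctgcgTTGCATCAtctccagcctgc
Gars (chr6:55037959-55037990, plus strand): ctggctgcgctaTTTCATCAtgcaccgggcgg
Yars (chr4:129189894-129189925, plus strand): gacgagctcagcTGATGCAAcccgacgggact
Tars (chr15:11399654-11399685, minus strand): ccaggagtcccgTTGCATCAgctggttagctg
Iars (chr13:49682125-49682156, plus strand): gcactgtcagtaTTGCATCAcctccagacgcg
The first 3 are long stretches of the promoter, and the others show 12 bases on each side of the match. A match is a description of letters in the window and says nothing of binding. Slc7a11 also held the motif, so 10 of the 11 holders were measured.

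1 array stood apart before any comparison was made. Deleted IgM replicate 3 correlated at 0.817 to 0.865 with the other arrays of its group over all tested genes, whereas all other pairs within a group correlated at 0.951 to 0.980. Most members on short genes were low on it, as were some on longer genes. Of the 8 members with a genomic span under 10 kb, 7 lay below the mean of replicates 1 and 2, with a median deviation of -1.21 (log2). Of the 30 longer members 22 lay above it, with a median of 0.58, and over the 38 members Spearman's rho between span and deviation was 0.53 (a description, since all members share 1 array; the limit of 10 kb was chosen with the values known). The lowest deviations were those of Psph (-2.19, span 21.89 kb), Ddit3 (-2.17, 5.5 kb), Cebpb (-1.71, 1.52 kb) and Chac1 (-1.67, 3.08 kb). The highest was that of Slc7a6 (1.57, 30.5 kb). Span was set beside this array for the members alone, so no share over all tested genes is given. Without this array, no member lost its call in the response of deleted cells to IgM and 3 gained one (Cebpb, Ddit3 and Psph), while 7 members, 0 of them called, moved by over 1.5 times or changed sign. In the genotype difference with IgM 31 of 38 members moved that much, and 0 were called with or without the array. Small differences meet this rule easily, as for Shmt2 (0.08 with the array and 0.0016 without). Moves were not counted over all tested genes, so these counts are not a result about the members.

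**Figure D1:**
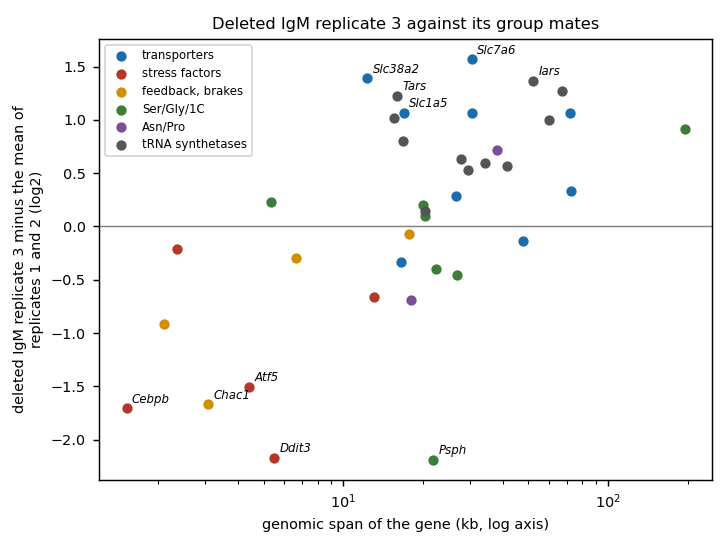
Deviation of deleted IgM replicate 3 from the mean of replicates 1 and 2 of its group (log2, vertical axis) against genomic span (kb, log axis) for the 38 members, each point 1 gene. Members under 10 kb have a median of -1.21 and longer members a median of 0.58.

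The labelled cell type and genotype were checked in the same values. All 8 measured pan-B markers passed the filter, and their summed level was 16.02 to 16.19 (log2 of the sum) on the arrays without IgM and 14.89 to 15.40 with it. In bulk samples, fewer cells of a type and less RNA per cell cannot be told apart. Of 7 measured T cell markers 2 passed, and Cd3e, Cd4, Cd8a, Cd8b1 and Thy1 did not. The 9 neutrophil and granule markers, all of which passed, had summed levels of 8.67 to 11.51 on unstimulated control arrays and 11.97 to 14.62 on unstimulated deleted arrays, and with IgM the ranges were 8.15 to 10.70 and 10.82 to 13.85. The macrophage and monocyte markers (5 of 7 passing, without Fcgr1 and Mertk) ran from 7.78 to 9.13 and from 9.56 to 11.58 without IgM, and from 7.51 to 8.84 and from 8.88 to 11.25 with it. Within that list Csf1r was higher in deleted cells by 3.69 without IgM and 3.99 with it (limma adjusted p = 0.0199 and 0.0198), while Adgre1 was lower without IgM by -1.45 (0.0334). NK cell markers (5 of 6 passing, without Ncr1) ran from 7.28 to 10.38 on control and from 8.97 to 10.93 on deleted arrays without IgM, and from 6.998 to 9.78 and from 7.90 to 10.40 with it, and Klrk1 was higher in unstimulated deleted cells by 1.56 (adjusted p = 0.0141). Erythroid markers (1 of 3 passing, without Hba-a1 and Klf1) ran from 5.996 to 6.71 and from 6.94 to 9.73 without IgM. With it they ran from 5.87 to 6.10 and from 6.62 to 8.39. Each sum took in all measured markers of its list, passing or not. The summed neutrophil, macrophage and erythroid levels were thus higher on deleted arrays, while the NK ranges overlapped. None of the 9 neutrophil markers passed a genotype comparison (limma), and with the replicate block 4 were higher without IgM and 2 with it. Of the plasma cell markers Irf4 was lower without IgM by -0.89 and Prdm1 higher with it by 1.56 (limma adjusted p = 0.0234 and 0.0191). Single markers went in both directions, and the part of these lists in the genotype differences below was not tested. None of the 8 probe sets of Foxp1 passed the genotype test, with log2 differences of -0.29 to 0.13 without IgM and -0.30 to 0.32 with it (limma, lowest Benjamini-Hochberg adjusted p = 1 and 0.656). It is unknown whether any of them reads the deleted part, so they do not check the labels.

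IgM raised most of the measured members in both genotypes. In control cells 22 of 38 members rose and 1 fell (limma, Benjamini-Hochberg adjusted p under 0.05), or 57.9% and 2.63%, against 8.71% of all tested genes that rose and 12% that fell. In deleted cells 27 rose and 1 fell, or 71.1% and 2.63%, against 9.78% and 9.21% of all tested genes. The median member changed by 0.99 (log2) in control and 1.30 in deleted cells, while the medians of all tested genes were -0.05 and -0.08. All 3 IgM arrays lay above all 3 unstimulated arrays for 30 members in control cells, against 21% of all genes, and for 28 in deleted cells, against 16.6%. They lay below for 1 member in each genotype, against 24.5% and 17.9%. Between same-numbered arrays, the IgM array was higher in all 3 pairs for 36 members in control cells (36.9% of all genes) and for 32 in deleted cells (27.3%).

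These counts, like those of all tested genes, depended on single arrays. In control cells 23 members were called, up or down, against 20.7% of all genes. The count was 13 without control IgM replicate 3 (13.3% of all genes) or without control unstimulated replicate 1 (14.1%). It was 14 without control unstimulated replicate 3 and 15 without control IgM replicate 2 (14.5% of all genes each). Without all 4 arrays of replicate 1 it was 5 (5.85%), and without those of replicate 2 it was 3 (3.12%). The 28 calls in deleted cells, against 19% of all genes, became 5 (4.18%) and 7 (2.04%). A fit to the 6 deleted arrays alone called 10 (5.81% of all genes). Without deleted IgM replicate 3 the full fit called 29 members up in control cells and 30 in deleted cells, against 16.6% and 12.9% of all genes. Over the single-array and other alternatives run, no called member changed direction.

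**Figure D2:**
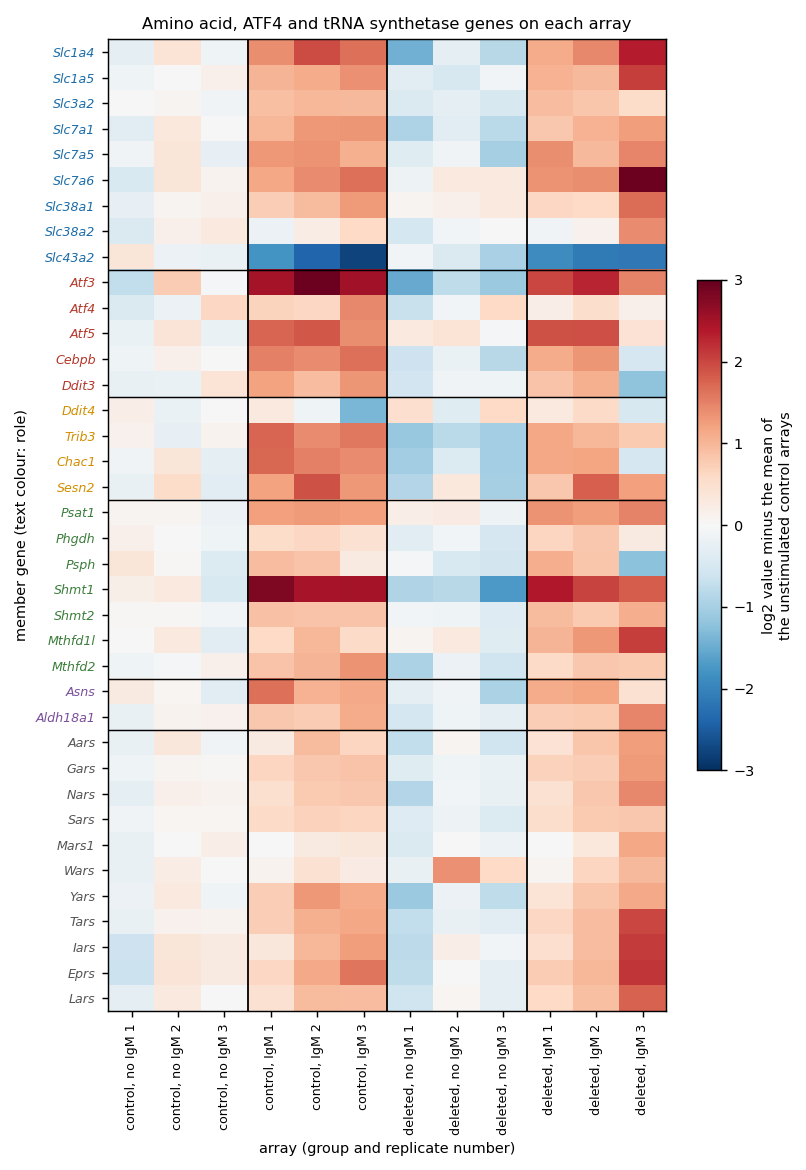
Log2 level of the 38 members (rows, grouped by role) on each of the 12 arrays (columns, grouped by genotype and stimulation), shown as the log2 value minus the mean of the unstimulated control arrays. Most rows are higher in the IgM columns of both genotypes, and Slc43a2 runs the other way.

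Amino acid transporters responded in both directions. Slc7a5, which forms the large neutral amino acid transporter LAT1, had log2 levels of 11.11, 11.59 and 10.98 on unstimulated control arrays and 12.53, 12.57 and 12.28 with IgM. In deleted cells the levels were 10.86, 11.12 and 10.22 without IgM and 12.63, 12.19 and 12.69 with it. The stimulated arrays lay above the unstimulated ones in both genotypes, with rises of 1.23 ± 0.27 (SE, limma with n = 3 per group, adjusted p = 0.00887) in control and 1.77 ± 0.27 (adjusted p = 0.00151) in deleted cells. Its heavy-chain partner Slc3a2, which carries LAT1 to the cell surface, rose by 0.95 ± 0.17 and 1.17 ± 0.17. Slc7a1, which imports cationic amino acids such as arginine, read 13.07, 13.37 and 13.40 on control IgM arrays and 12.89, 13.12 and 13.33 on deleted IgM arrays. All 6 lay above every unstimulated array, the highest of which read 12.40, and the rises were 1.20 ± 0.24 and 1.72 ± 0.24. Slc1a4, a carrier of alanine, serine and cysteine, moved from 7.63, 8.33 and 7.79 to 9.31, 9.87 and 9.56 on control arrays and from 6.47, 7.65 and 7.08 to 9.04, 9.35 and 10.26 on deleted arrays. It and the glutamine carrier Slc1a5 rose by 1.67 ± 0.38 and 1.17 ± 0.28 in control cells and by 2.48 ± 0.38 and 1.67 ± 0.28 in deleted cells. Slc7a6, another partner of Slc3a2, rose by 1.41 ± 0.40 and 1.75 ± 0.40, with deleted IgM levels of 10.32, 10.35 and 11.90. Without deleted IgM replicate 3 the deleted rises of Slc1a4, Slc1a5 and Slc7a6 were 2.13, 1.31 and 1.22. Slc38a1, another glutamine carrier, rose in control cells (0.99 ± 0.29, adjusted p = 0.0339), and its difference in deleted cells was 0.79 ± 0.29 (limma adjusted p = 0.0822, or 0.0155 with the replicate number as a block). Its deleted IgM levels were 12.23, 12.20 and 13.28, and without replicate 3 the difference was 0.44 (limma adjusted p = 0.12). Slc38a2, a related carrier, had differences of 0.22 ± 0.39 and 0.69 ± 0.39, neither of which passed, and its probe sets disagreed in sign. With the block the deleted difference passed (limma adjusted p = 0.0429), and without deleted IgM replicate 3 it was 0.22.

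Slc43a2, which carries leucine and other large neutral amino acids (LAT4), was the 1 member that fell. Its log2 levels on control arrays were 7.98, 7.45 and 7.41 without IgM and 5.83, 5.23 and 4.83 with it. Levels on deleted arrays were 7.54, 7.18 and 6.64 without IgM and 5.73, 5.50 and 5.47 with it. No stimulated array reached an unstimulated one, and the decline was -2.32 ± 0.31 in control (SE, limma with n = 3 per group, adjusted p = 0.000529) and -1.56 ± 0.31 in deleted cells (adjusted p = 0.00573). The decline was smaller by 0.77 in deleted cells, with a 95% interval of -0.19 to 1.72 (limma adjusted p = 0.951, and 0.385 under the replicate block), so the 2 declines were not told apart.

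The stress transcription factors were led by Atf3. Atf3, an immediate stress factor that is also a target of ATF4, had log2 levels of 5.99, 7.48 and 6.69 on unstimulated control arrays and 9.22, 9.67 and 9.24 with IgM. Deleted arrays read 5.21, 5.96 and 5.61 without IgM and 8.72, 9.01 and 8.20 with it. Stimulated arrays lay well above unstimulated ones in each genotype, and Atf3 rose by 2.66 ± 0.37 in control (SE, limma with n = 3 per group, adjusted p = 0.000715, 6.32-fold) and 3.05 ± 0.37 in deleted cells (adjusted p = 0.000446, 8.27-fold). Atf5, a factor related to ATF4, rose by 1.67 ± 0.38 and by 1.20 ± 0.38 (adjusted p = 0.0104 and 0.0484). Its deleted IgM levels were 8.80, 8.83 and 7.313, so replicate 3 barely exceeded the highest unstimulated deleted array (7.305). The deleted call held in 9 of 26 alternatives at the 0.05 limit. Without replicate 3 the rise was 1.71 (limma adjusted p = 0.000754). Of the 5 factors 3 rose in control and 2 in deleted cells.

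Atf4 itself did not pass in either genotype. Its log2 levels were 11.46, 11.72 and 12.51 on unstimulated control arrays and 12.57, 12.52 and 13.35 with IgM. On deleted arrays they were 11.22, 11.82 and 12.50 without IgM and 12.11, 12.44 and 12.06 with it. The control groups were barely apart and the deleted groups overlapped. The differences were 0.92 ± 0.38 (SE, limma with n = 3 per group, adjusted p = 0.117) and 0.35 ± 0.38 (adjusted p = 0.546), and with the replicate block the control difference passed (adjusted p = 0.0233). Its tested probe set is of a type whose probes may also match other genes. A second passing probe set, not of that type, had differences of 0.56 in control and 0.10 in deleted cells. Neither passed (limma, adjusted p = 0.22 and 0.845 over 16743 probe sets).

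Cebpb and Ddit3 turned on the array that stands apart. Ddit3 encodes CHOP, which acts in prolonged stress, and its levels with IgM were 11.84, 11.55 and 11.94 on control arrays and 11.49, 11.68 and 9.41 on deleted arrays. Replicate 3 of the deleted IgM group lay below all 6 unstimulated arrays, which ran from 10.05 to 11.03. The Ddit3 difference was 0.51 ± 0.50 in deleted cells with that array and 1.23 without it (limma adjusted p = 0.51 and 0.00445). Cebpb, a factor that dimerises with ATF4, rose by 1.53 ± 0.40 in control cells (adjusted p = 0.0203), and in deleted cells its difference was 1.19 ± 0.40 (adjusted p = 0.0621, or 0.0274 with the replicate block) with the array and 1.76 (adjusted p = 0.000313) without it.

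Of 4 further stress-response genes, some of which damp stress or growth, 3 rose in both genotypes. Trib3, a pseudokinase induced by ATF4 that restrains it in turn, had log2 levels of 9.65, 9.28 and 9.63 on unstimulated control arrays and 11.26, 10.95 and 11.09 with IgM. Deleted arrays read 8.37, 8.70 and 8.50 without IgM and 10.69, 10.52 and 10.31 with it. The 4 groups did not overlap, in the order deleted unstimulated, control unstimulated, deleted IgM and control IgM. Trib3 rose by 1.58 ± 0.20 in control (SE, limma with n = 3 per group, adjusted p = 0.000402, 2.99-fold) and 1.98 ± 0.20 in deleted cells (adjusted p = 0.000144, 3.96-fold). Chac1, which breaks down glutathione, rose by 1.56 ± 0.41 and 1.44 ± 0.41, although its deleted IgM levels of 9.65, 9.69 and 7.999 reached down to the unstimulated range on replicate 3. The third was the leucine sensor Sesn2, an inhibitor of mTORC1, which rose by 1.47 ± 0.40 and 1.80 ± 0.40. Ddit4, another mTORC1 inhibitor, had differences of -0.40 ± 0.44 and -0.12 ± 0.44 and did not pass.

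Serine, glycine and one-carbon enzymes rose for 4 of 7 members in control and 6 of 7 in deleted cells. Shmt1, the cytosolic enzyme that turns serine into glycine and a one-carbon unit, had log2 levels of 7.96, 8.09 and 7.33 on unstimulated control arrays and 10.59, 10.27 and 10.28 with IgM. On deleted arrays the levels were 6.89, 6.96 and 6.06 without IgM and 10.19, 9.82 and 9.60 with it. Its stimulated and unstimulated arrays were far apart, and it rose by 2.59 ± 0.30 (SE, limma with n = 3 per group, adjusted p = 0.000259, 6.00-fold) and 3.23 ± 0.30 (adjusted p = 1e-04, 9.40-fold). Its mitochondrial counterpart Shmt2 rose by 0.86 ± 0.17 and 1.13 ± 0.17. Mthfd2, which oxidises the one-carbon unit in mitochondria, rose by 1.08 ± 0.23 and 1.30 ± 0.23. Psat1, in the serine pathway, rose by 1.25 ± 0.18 and 1.27 ± 0.18. Mthfd1l, which yields formate in mitochondria, read 10.56, 10.95 and 10.55 on control IgM arrays and 10.99, 11.26 and 12.04 on deleted IgM arrays, where replicate 3 was the highest. It rose in deleted cells (1.46 ± 0.30, limma adjusted p = 0.00723), and its control difference was 0.72 ± 0.30 (adjusted p = 0.122). Phgdh, the first enzyme of serine synthesis, rose by 0.87 ± 0.20 in deleted cells, and its control difference was 0.54 ± 0.20 (adjusted p = 0.0871, or 0.0192 with the replicate block). Psph, the last step, had differences of 0.68 ± 0.52 and 0.59 ± 0.52, and without deleted IgM replicate 3 the latter was 1.32 (limma adjusted p = 0.00742).

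Asparagine synthetase, Asns, rose by 1.28 ± 0.30 in control (SE, limma with n = 3 per group, adjusted p = 0.0123) and 1.36 ± 0.30 in deleted cells (adjusted p = 0.0102). Its log2 levels were 10.05, 9.84 and 9.46 without IgM and 11.43, 10.82 and 10.93 with it on control arrays, and 9.51, 9.67 and 8.84 against 10.89, 10.96 and 10.24 on deleted arrays. The stimulated arrays lay above the unstimulated ones in each genotype. Aldh18a1, which starts proline synthesis from glutamate, rose by 0.90 ± 0.24 and 1.31 ± 0.24.

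Cytosolic tRNA synthetases, each of which joins 1 amino acid (2 for Eprs) to its tRNA, rose for 3 of 11 members in control cells and 8 of 11 in deleted cells. Gars (glycine) read 11.92, 12.13 and 12.08 without IgM and 12.68, 12.86 and 12.90 with it on control arrays, and 11.69, 11.90 and 11.84 against 12.73, 12.78 and 13.32 on deleted arrays. Its groups were apart in both genotypes, and it rose by 0.77 ± 0.20 and 1.13 ± 0.20. Sars (serine) rose by 0.64 ± 0.17 and 1.03 ± 0.17 and Yars (tyrosine) by 1.05 ± 0.29 and 1.48 ± 0.29. Aars, Nars, Tars, Eprs and Lars rose in deleted cells by 1.26 to 1.65, and their control differences were 0.63 to 1.13 with limma adjusted p of 0.0543 to 0.188. With the replicate block all 5 passed in control cells too, at adjusted p of 0.00803 to 0.0421. Iars (isoleucine) had differences of 0.86 ± 0.45 and 1.41 ± 0.45 (limma adjusted p = 0.222 and 0.0502), and with the block both passed (0.0236 and 0.00242). Mars1 (0.20 and 0.69) and Wars (0.27 and -0.02), for methionine and tryptophan, did not pass in either genotype. With the block the deleted Mars1 difference passed (limma adjusted p = 0.0275), and without deleted IgM replicate 3 it was 0.35. Every synthetase read higher on deleted IgM replicate 3 than the mean of replicates 1 and 2, from 0.14 for Sars to 1.37 for Iars. Tars, for example, had levels of 11.78, 12.08 and 13.16 in that group. Without that array the median synthetase response in deleted cells was 1.03, against 1.30 with it. The fit then called 7 synthetases up in control and 8 in deleted cells, against 16.6% and 12.9% of all genes.

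**Figure D3:**
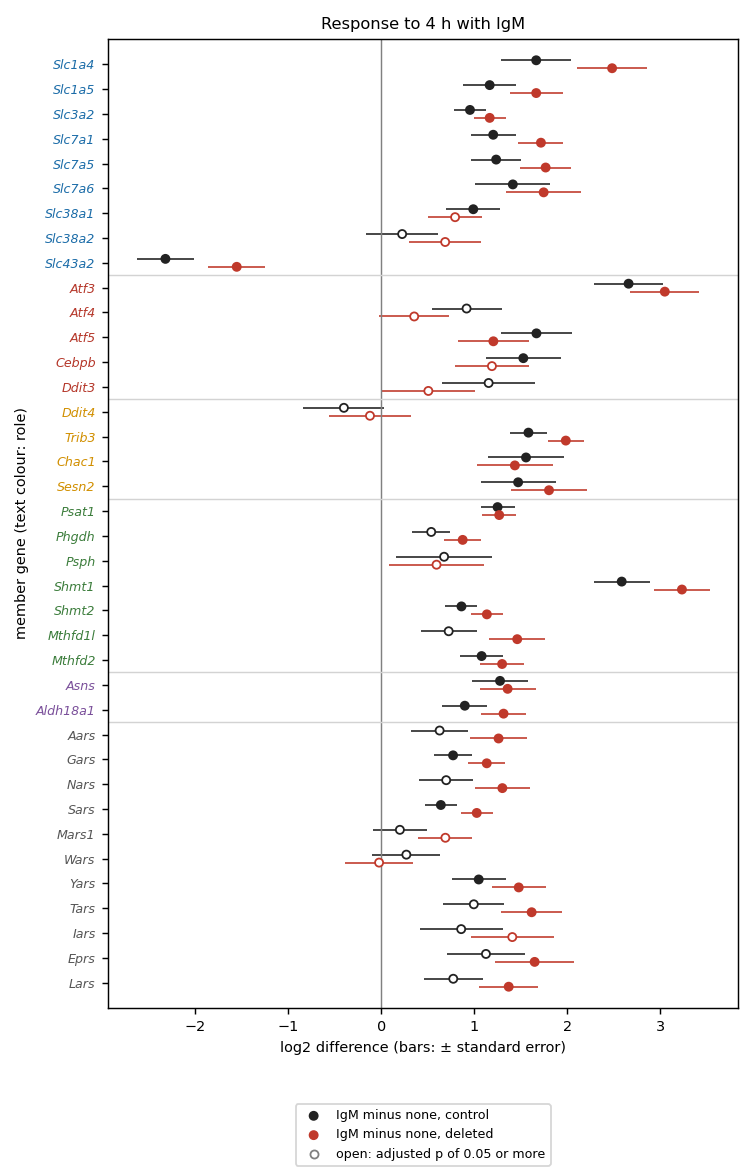
Log2 difference between IgM and unstimulated arrays for each of the 38 members in control and deleted cells, with bars of ± 1 standard error and filled points for adjusted p under 0.05. Points lie mostly right of 0, with Shmt1 and Atf3 farthest right and Slc43a2 left in both genotypes.

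The response was then compared between genotypes. No member passed the interaction test (limma, 0 of 38, lowest Benjamini-Hochberg adjusted p = 0.951, 0 at an unadjusted p under 0.05, and 0 with the replicate block), against 0% of all genes up and 0.108% down, or 0.0215% and 0.151% with the block. The calls in both genotypes were shared by 21 members, 20 of them upward, while 2 passed in control cells alone and 7 in deleted cells alone. Since the interaction was not called for these 9, they are not shown to differ. The 95% interval of the difference between responses ran from -0.36 to 1.99 for Slc1a4, from -0.21 to 1.02 for Trib3 and from -0.29 to 1.58 for Shmt1.

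The genotypes were next compared without IgM. Of the 38 members 1 passed, Trib3, which was lower in deleted cells, against 0.818% of all tested genes that were lower and 2.03% that were higher. Its level fell from 9.52 ± 0.20 to 8.53 ± 0.16 (SD, n = 3 each), a difference of -0.99 ± 0.20 (SE, limma adjusted p = 0.0213, 1.99-fold), with no overlap between the 3 deleted and the 3 control arrays given above. The call was lost without control unstimulated replicate 1 or 3 (adjusted p = 0.0978 and 0.0969) and without deleted unstimulated replicate 1 or 3 (0.109 and 0.0672). It was lost when all arrays of replicate 1, 2 or 3 were left out (adjusted p = 0.521, 0.308 and 0.0778) and with the probe set of the largest interquartile range (adjusted p = 0.0784). That last setting called 1 member other than Trib3, against 2.41% of all genes.

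Most other members also had negative differences. In all, 31 of 38 members were lower in unstimulated deleted cells, against 49.5% of all genes, with a median difference of -0.33 against 0.00. The 3 deleted arrays lay below the 3 control arrays for 10 members, against 8.55% of all genes, and above them for 0, against 10.3%. Between same-numbered arrays 29 members were lower in all 3 pairs and 4 higher, against 26.8% and 28% of all genes. Fits with the replicate number as a block called 4 members lower, against 2.38% of all genes: Trib3 (limma adjusted p = 0.0106), Shmt1 (-1.15, 0.00782), Atf3 (-1.13, 0.0266) and Slc7a1 (-0.68, 0.0401).

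Those 3 further members show how the levels lie. The unstimulated Shmt1 levels given above were 7.33 to 8.09 on control and 6.06 to 6.96 on deleted arrays, without overlap. For Atf3 the control range was 5.99 to 7.48 and the deleted range 5.21 to 5.96, close together but also without overlap. Slc7a1 read 11.74, 12.40 and 12.09 on control arrays and 11.15, 11.75 and 11.28 on deleted arrays, so that the deleted replicate 2 just exceeded the control replicate 1. Without the block, the adjusted p from limma were 0.0779, 0.194 and 0.245. Shmt1 has 4 passing probe sets, and with each tested (16743 in all) its differences were -1.15, -0.65, -1.16 and -1.53. Their limma adjusted p were 0.0967, 0.707, 0.0257 and 0.0448. Leaving out deleted IgM replicate 3, an array outside this comparison that adds to the shared spread, gave 2 members lower, Trib3 (adjusted p = 0.00528) and Shmt1 (0.0433), against 2.09% of all genes. Leaving it out with the block, an alternative chosen after the values were seen, gave 18 members lower, or 47.4%, against 10% of all genes.

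**Figure D4:**
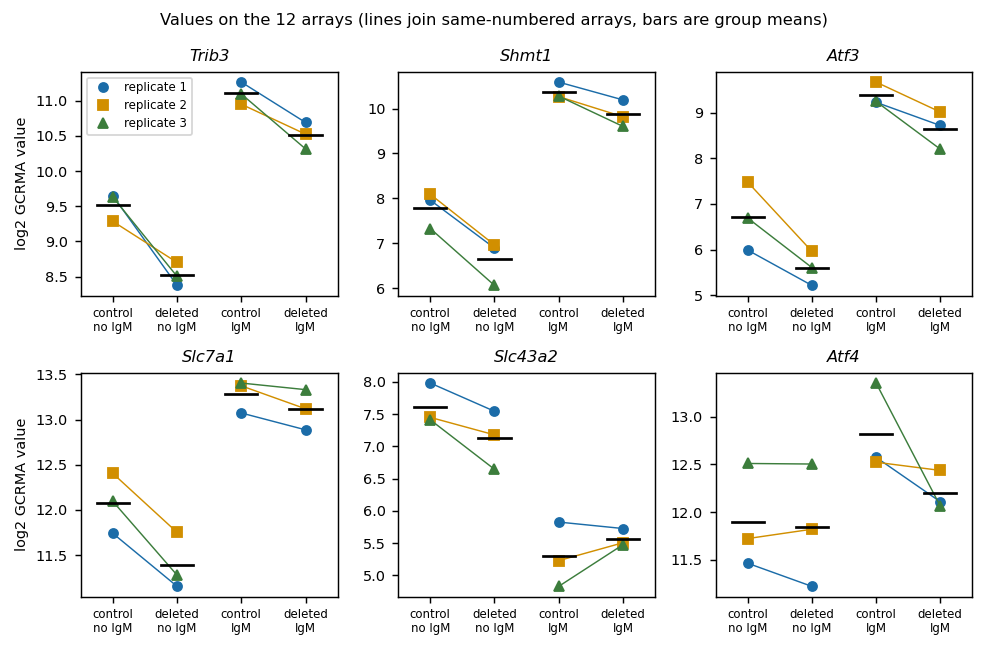
Log2 levels of Trib3, Shmt1, Atf3, Slc7a1, Slc43a2 and Atf4 on the 12 arrays, with each array as a point, lines joining same-numbered arrays of the 2 genotypes and a bar at the group mean. Trib3 shows 4 groups that do not overlap, while the unstimulated Atf4 groups of the genotypes overlap.

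The genotypes were also compared after IgM. No member passed (limma, 0 of 38, and 0 with the replicate block), against 1.59% of all genes higher and 0.129% lower, or 5.66% and 1.1% with the block, and 4 had an unadjusted p under 0.05. The median member differed by 0.06, against 0.08 over all genes, and without deleted IgM replicate 3 the medians were -0.13 and 0.03, so the sign of the members' median turned on 1 array. Deleted arrays lay below control arrays for 7 members (Trib3, Chac1, Cebpb, Atf3, Shmt1, Atf4 and Mthfd2), against 5.55% of all genes, and above them for 1 (Mthfd1l), against 12.3%. The 4 smallest p-values were those of Trib3 (-0.59 ± 0.20, limma adjusted p = 0.194), Mthfd1l (0.74 ± 0.30, 0.305), Chac1 (-0.94 ± 0.41, 0.345) and Cebpb (-0.89 ± 0.40, 0.364). Without deleted IgM replicate 3 these differences were -0.50 for Trib3, 0.44 for Mthfd1l, -0.38 for Chac1 and -0.32 for Cebpb. The 2 genotype comparisons and the 2 IgM comparisons share their groups, so agreement between them is not independent.

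**Figure D5:**
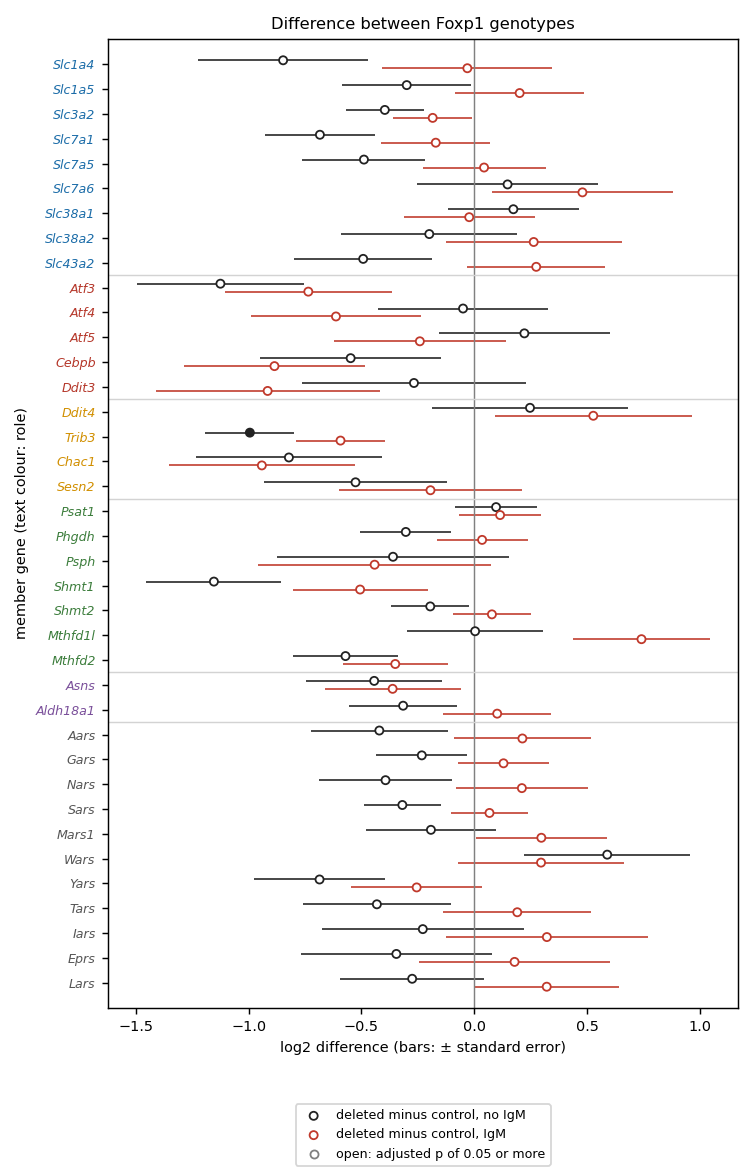
Log2 difference between deleted and control cells for each of the 38 members without IgM and with it, with bars of ± 1 standard error and filled points for adjusted p under 0.05. Trib3 without IgM, at -0.99, is the 1 filled point, and most unstimulated points lie left of 0.

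Members whose promoter holds the response element letters were set beside those without. In control cells 7 of 10 holders rose with IgM and 12 of 22 others, with median changes of 1.16 and 0.94. In deleted cells 9 of 10 and 14 of 22 rose, with medians of 1.46 and 1.18. Unstimulated deleted cells had medians of -0.56 and -0.31 relative to control cells, with Trib3 the 1 holder that passed. These are counts of motif holders beside the levels, with no test. Shmt1 and Slc43a2, which had the largest rise and fall with IgM among the others, do not hold these letters in this window.

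Genes of the same pathways outside the members were counted from further lists. Beside these counts, 8.71% of all tested genes rose and 12% fell with IgM in control cells. In deleted cells the shares were 9.78% and 9.21%. Of 11 other cytosolic synthetases and partners 5 rose in control cells and 3 in deleted cells with IgM, among them Farsb (0.92 and 1.23) and Rars (0.85 and 1.24). Of 16 mitochondrial synthetases 5 rose and 1 fell in control cells and 3 rose in deleted cells. Among 8 genes of the eIF2 kinases and phosphatase, Eif2ak3, the kinase PERK of the endoplasmic reticulum, fell by 2.07 in control cells and by 1.55 in deleted cells, and Ppp1r15a, which helps remove the eIF2 phosphate, rose by 1.39 and 1.52. Of 14 genes of the unfolded protein response 1 rose in control and 2 in deleted cells. Among 11 other transporters, the glycine carrier Slc6a9 rose by 2.11 and 2.70 and the cationic carrier Slc7a3 by 1.31 and 2.24, while Slc38a6 fell by 1.45 in deleted cells (limma adjusted p = 0.0432, a call lost without deleted IgM replicate 3) and no other of the 11 passed. Slc7a3 was also lower in unstimulated deleted cells by -1.05 (limma adjusted p = 0.0386). Of 15 other folate, amino acid and ATF4-linked genes 6 rose and 1 fell with IgM in control cells, and 5 rose in deleted cells, among them Mthfd1 (1.21 and 2.03), a cytosolic folate enzyme, and Gpt2 (1.14 and 2.15), a mitochondrial alanine transaminase. Oat, the ornithine aminotransferase, was the 1 that fell, by 0.71 in control cells. Between genotypes, 1 gene of this list was higher and 1 lower without IgM, against 2.03% and 0.818% of all tested genes. With IgM 1 was higher, against 1.59%. Cth, the cystathionine enzyme that yields cysteine, rose with IgM by 1.72 and 2.38 and was lower in unstimulated deleted cells by -1.98 (limma adjusted p = 0.00463). Vldlr, a lipoprotein receptor linked to ATF4, was higher in deleted cells by 3.11 without IgM and 2.12 with it. Its mean over the 12 arrays was 3.69, near the floor, and it passed the filter only through deleted arrays, where it was high. The filter thus chose it by the groups compared. Its 2 calls, which are the higher ones counted above, are no support for a genotype difference. Edem1, which helps clear misfolded proteins, was higher in deleted cells with IgM by 1.51 (adjusted p = 0.0288).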

How the data were processed

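Log2 values of 12 arrays were used as deposited. The authors used GCRMA, per the submitters' processing notes. It corrects background from probe sequence, sets all arrays to 1 distribution and gives 1 value per probe set. Its version is not given in the sources used here. That the deposited values are log2 follows from their range, from a floor of 2.23 to 15.79, and values near the floor compress a change. Precision is limited by the number of arrays, as arrays give no depth.

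Of 45101 probe sets, 34945 named 1 gene in the platform annotation, 932 several and 9160 none, and 64 were controls. Symbols of 34741 were updated through gene identifiers with a table of assembly GRCm38.p6. Probe sets above log2 4 on at least 3 arrays were kept, and each of 9293 genes was represented by the one with the highest mean. The tested probe set of 6 members (Atf4, Asns, Phgdh, Shmt2, Aldh18a1 and Wars) is of the x_at type and that of 3 (Slc38a1, Sars and Iars) of the s_at type, whose probes can match more than 1 gene or transcript. Of the 25 members with over 1 passing probe set, the response to IgM had the same sign in 24 in control and 23 in deleted cells, and the unstimulated genotype difference in 22.

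The tests used limma 3.58.1 under R 4.3.3, with 1 mean per group and all 12 arrays sharing 1 spread per gene. They were two-sided, and p was adjusted by Benjamini-Hochberg over all 9293 genes, with 0.05 as the limit. The script was tested on simulated data. Replicate numbers recur in every group in the labels. Array deviations from the group mean, compared between arrays of 1 number, correlated at 0.17 to 0.85, all above 0.1. The main fit held no pairing. The numbers were treated as pairs only in the replicate block and in the counts of same-numbered arrays. The text describes members past the threshold or, where none passed, up to 4 with the smallest p, and up to 4 passing genes of each further list. The members and lists were chosen with earlier results of these data known. Alternatives changed the low-value filter, the scaling, how a gene's probe set is chosen, the variance model, the weights and set of arrays, and the limit on p. Promoter sequences of 2 of the 11 motif holders are not reported here.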

Additional observations from a re-analysis of the deposited data

How the results depend on the processing

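Counts of called members depended on the arrays and on the threshold, and no called member changed direction under any alternative run. For the unstimulated genotype difference, with 1 member called, the replicate block gave 4, the mean of passing probe sets 2, array weights 5 and an adjusted p under 0.01 gave 0, and these settings called 6.89%, 3.03%, 9.09% and 1.27% of all genes, against 2.85%. The block without deleted IgM replicate 3, chosen after seeing the data, gave 18 (21.6% of all genes). Leaving out single arrays or all arrays of 1 replicate number gave 0 to 2, while 0.323% to 5.93% of all genes were called. For the IgM response in control cells, with 23 called, an adjusted p under 0.01 gave 10 (10.6% of all genes). Leaving out arrays gave 3 to 30, while 3.12% to 36.1% of all genes were called. For the response in deleted cells, with 28 called, the fit to those arrays alone gave 10 (5.81%), and an adjusted p under 0.01 gave 18 (8.89%). Leaving out arrays there gave 5 to 31, while 2.04% to 25.7% of all genes were called. The replicate block gave 31 and 33 for these responses, and 35.5% and 36.7% of all genes against 20.7% and 19%. Counts were 0 for the genotype difference with IgM and for the interaction under each alternative, and the interaction has no value from arrays of 2 groups alone. Per member, 501 of 598 control and 631 of 728 deleted values kept their call, and 97 of each lost it. Atf3, Shmt1 and Trib3 held in control cells throughout, and these with Slc1a4 and Slc7a1 in deleted cells. The Trib3 genotype call held in 18 of 26. These per-member tallies leave out the setting of adjusted p under 0.01, at which the Trib3 genotype difference did not pass. The cause of these changes was not tested.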
